A study of Mus musculus with 8 samples.

Results

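The mitochondrial ribosomal protein genes are the nuclear genes that encode the protein part of the ribosome inside mitochondria. They were taken here as the protein-coding genes of the mouse build mm10 whose symbol is Mrpl or Mrps followed by a number and at most 1 letter. This gave 78 genes of the 54532 in the count table, 49 of them Mrpl (large subunit) and 29 Mrps (small subunit), and 77 were read deeply enough to be tested among 17291 tested genes. RNA was sequenced from microglia of 8 female mice, 4 wild type (WT) and 4 of the line labelled Cd11b-P2X4mCherryIN KI (KI), and every mouse gave 1 library. P2X4, the product of P2rx4, is a channel gated by ATP outside the cell, CD11b (Itgam) marks myeloid cells, and mCherry is a red fluorescent protein. The cells were sorted from spinal cord as living, CD11b-positive, CD45-low and Ly6C-negative. The labels give no age, treatment, disease or batch for these mice, and they do not say which cells express the knock-in or whether the mice were littermates.

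Mitochondria keep their own ribosome, which translates the few messenger RNAs made from mitochondrial DNA. Its ribosomal RNAs come from the mitochondrial genome, whereas its proteins are encoded in the nucleus, made in the cytosol and imported. The proteins made on it are core subunits of the respiratory chain and of ATP synthase, so the large and small subunit proteins are needed wherever cells respire. Some of the proteins have bacterial counterparts and others are found only in mitochondria. NRF1, ETS-family factors (among them GABP, also called NRF2) and YY1 are transcription factors known to act at many nuclear genes for mitochondrial proteins.

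Promoter sequences were read from RefSeq (build GRCm38.p6) for 69 of the 78 members, with 75 promoters of 250 bases before to 50 bases after a start site. Each was searched on both strands for GCGCANGCG (NRF1), CCGGAAGT (ETS family) and AAGATGGCG (YY1). The stretches below run from 150 bases before to 30 bases after the start, 5′ to 3′ on the gene's strand, with the matches in capitals. Mrps22 and Mrps18a were chosen after their values were seen, because all their KI libraries lay above all their WT libraries. Mrpl12 and Mrps26 show the NRF1 match, in Mrps26 beside an ETS match on the opposite strand. The 4 stretches lie at chr9:98601650-98601829 on the minus strand (Mrps22), chr17:46110854-46111033 on the plus strand (Mrps18a), chr11:120484487-120484666 on the plus strand (Mrpl12) and chr2:130563607-130563786 on the plus strand (Mrps26).
Mrps22: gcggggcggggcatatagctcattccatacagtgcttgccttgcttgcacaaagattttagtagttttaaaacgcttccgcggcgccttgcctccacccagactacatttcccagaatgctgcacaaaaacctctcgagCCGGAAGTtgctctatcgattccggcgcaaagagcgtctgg
Mrps18a: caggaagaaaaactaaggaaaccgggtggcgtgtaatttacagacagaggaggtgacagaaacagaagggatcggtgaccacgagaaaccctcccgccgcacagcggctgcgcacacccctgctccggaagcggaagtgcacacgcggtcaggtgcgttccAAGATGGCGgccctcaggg
Mrpl12: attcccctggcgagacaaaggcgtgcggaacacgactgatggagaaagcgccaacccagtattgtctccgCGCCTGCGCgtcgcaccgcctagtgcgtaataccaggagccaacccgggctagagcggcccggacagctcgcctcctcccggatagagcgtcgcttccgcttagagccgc
Mrps26: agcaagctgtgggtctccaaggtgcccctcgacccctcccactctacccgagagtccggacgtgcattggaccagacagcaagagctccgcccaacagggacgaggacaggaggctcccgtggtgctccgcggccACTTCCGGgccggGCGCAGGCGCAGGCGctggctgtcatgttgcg

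Each motif was found in a larger share of the members' promoters than of all 32851 promoters searched. These were not matched to the members by expression or base composition, so the larger share may not be particular to the members. The NRF1 letters were in 16 of 75 member promoters (21.3%) and in 6.25% of all promoters. The ETS letters were in 12 of 75 (16%) against 3.89%, and the YY1 letters in 8 of 75 (10.7%) against 1.4%. The matches fell in 34 genes, and Mrps26 (NRF1 and ETS) and Mrps27, a small subunit protein, (ETS and YY1) held more than 1 of the motifs. The YY1 letters hold ATG, the letters of a start codon, and no correction was made for where translation starts. A match is a description of the letters and was not tested as a binding site.

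The libraries held between 45167483 and 54049801 reads on genes. The 12 microglial marker genes were all above 1 CPM (reads scaled to library size), with a summed level of 3.47e+04 to 3.942e+04 CPM in WT and 3.33e+04 to 3.752e+04 CPM in KI. The marker lists of 9 other cell types overlapped between the groups, the most abundant being erythroid (159.1 to 522.8 CPM in WT, 96.18 to 305.8 CPM in KI), astrocyte (312.1 to 379.6 and 308.3 to 370 CPM) and oligodendrocyte (163.7 to 283.5 and 148.2 to 272.8 CPM). Of the T and B cell markers, 1 of 6 was above 1 CPM. The part of other cells' RNA in the results below was not tested. P2rx4 itself was at 793 ± 43.5 CPM in WT and 859 ± 62.7 CPM in KI (SD, n = 4 for each group here and below), a log2 fold change of 0.11 (edgeR quasi-likelihood test, adjusted p = 0.735). The 37 genes of mitochondrial DNA were listed with 0 reads in all 8 libraries, so the RNA that these ribosomes contain and translate was not measured here.

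The mitoribosome genes were expressed well above the typical tested gene. Levels between genes were compared as RPKM, the CPM divided by the summed exon length in kilobases, averaged over the 8 libraries. The median member was at 13.9 RPKM against 3.09 RPKM for all tested genes, with 15.1 RPKM for the large subunit and 11.4 RPKM for the small subunit. The levels spanned 38.1-fold, from Mrpl36 at 61.6 RPKM to Mrpl23 at 1.62 RPKM. The low end is uncertain, since a pseudogene copy held 78.3% of the joint reads of Mrpl23 (below). Per principal transcript length, also described below, the span was 52.2-fold, from Mrpl42 at 162 RPKM to Mrps5 at 3.10 RPKM. Bulk RNA cannot tell a difference in the number of cells that express a gene from a difference in RNA per cell.

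In the large subunit, the highest levels per length were those of Mrpl36, Mrpl28 and Mrpl41. Mrpl36, a very small protein with a bacterial counterpart, was at 59.5 ± 3.92 RPKM in WT and 63.6 ± 9.23 RPKM in KI. Mrpl28 was at 47.1 ± 3.72 and 49.3 ± 6.45 RPKM. Mrpl41, found only in mitochondrial ribosomes, was at 40.7 ± 3.87 and 47.8 ± 7.05 RPKM. Over all 8 libraries Mrpl28 (48.2 RPKM) and Mrpl41 (44.2 RPKM) differed by less than their SDs in KI, and Mrpl41 and the next in order, Mrps21 (43.9 RPKM), by less than the SDs in either group. At the lower end stood Mrpl13 at 3.25 ± 0.61 RPKM in WT and 4.003 ± 0.21 RPKM in KI, and Mrpl33 at 3.08 ± 0.15 and 3.19 ± 0.24 RPKM. Mrpl23, whose bacterial counterpart sits at the exit of the peptide tunnel, was last at 1.75 ± 0.17 and 1.48 ± 0.17 RPKM.

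In the small subunit, Mrps21 led with 41.9 ± 3.33 RPKM in WT and 45.9 ± 2.84 RPKM in KI. Mrps14 followed with 40.1 ± 3.73 and 43.1 ± 4.25 RPKM, and Mrps15 with 32.9 ± 3.19 and 35.7 ± 2.28 RPKM. Mrps21 and Mrps14 did not differ beyond their SDs. The 3 lowest were Mrps6 at 2.37 ± 0.30 and 2.15 ± 0.18 RPKM, Mrps5 at 1.90 ± 0.41 and 2.32 ± 0.44 RPKM, and Mrps35 at 1.85 ± 0.17 and 1.68 ± 0.25 RPKM, and their spreads overlapped in part. All 6 of these small subunit genes except Mrps35, which is found only in mitochondrial ribosomes, have bacterial counterparts.

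**Figure D1:**
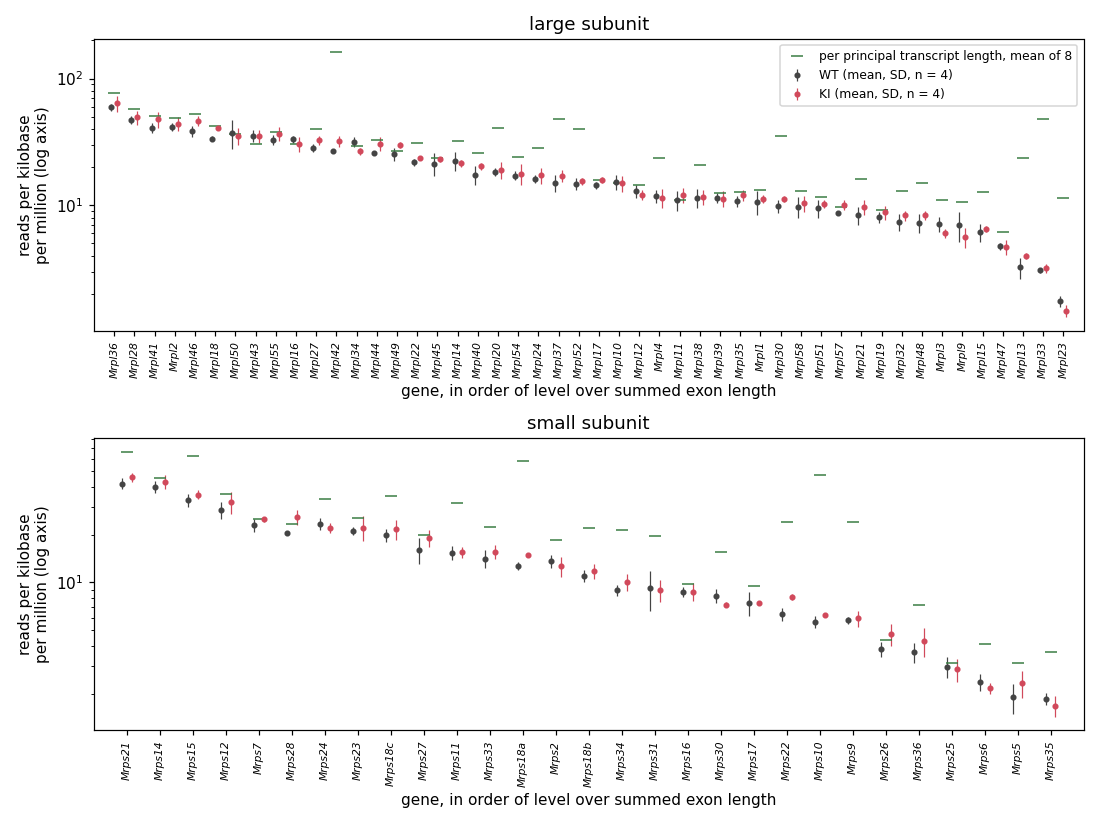
Level of each tested member in RPKM over summed exon length (log axis), for the large subunit (top) and the small subunit (bottom), as mean and SD of 4 WT and 4 KI libraries. Green bars give the mean of the 8 libraries per length of the principal transcript; the order runs from Mrpl36 (61.6) to Mrpl23 (1.62) and from Mrps21 (43.9) to Mrps35 (1.77), and the green bar of Mrpl42 stands at 162.

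The order depended on which length was used, since the summed exon length joins the exons of all annotated transcripts of a gene. Summed exons had a median of 2255 bases in the members, and the longest principal transcript (the main coding transcript in the GENCODE annotation) had a median of 1316 bases. Per principal transcript length, a measure chosen after seeing the data, the median was 23.7 RPKM and Mrpl42 was highest at 162 RPKM, compared with 29.2 RPKM per summed exon length. Mrpl33 moved from 3.13 to 48.0, Mrpl13 from 3.6 to 23.5, Mrps18a from 13.9 to 57.8 and Mrpl23 from 1.62 to 11.4. Mrps5 became the lowest at 3.10. The ratio of the large to the small subunit median was 1.33 per summed exon length and 1.11 per principal transcript length. Transcript lengths came from GENCODE M21, and 4 members, Mrpl11, Mrpl16, Mrpl43 and Mrpl49, have a principal transcript there that is longer than the deposited exon length.

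Near-identical processed pseudogenes, which are copies of a messenger RNA inserted elsewhere in the genome, share reads with some members. Such copies, of at least 95% identity, were found for 20 of the 78 members (27 copies), and they held over 20% of the joint reads in 4 of them. For Mrpl23, the pseudogene Mrpl23-ps1 (100% identity) held 78.3% of the joint reads. Its share was 74.2% to 77.7% in the WT libraries and 78.8% to 82.1% in the KI libraries. The shares did not overlap between the groups for Mrpl23, 1 of the 20 members with copies. As a background, a fraction of 0.0286 of the 70 assignments of libraries to groups separates the groups fully. The difference in share was not tested. For Mrps36 the copies held 62.1% of the joint reads, for Mrps33 43.5% and for Mrpl22 22.3%. Mrps36 is known as a subunit of the alpha-ketoglutarate dehydrogenase complex and is not part of the mammalian mitoribosome. The levels of these 4 genes are uncertain.

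Counts were made without strand, and the header gives no option to assign a read to more than 1 gene. How reads in overlapping exons affected the counts was not tested. Exon bases were shared with another gene in 33 of the 78 members, and over 25% of them in 7: Mrpl19, Mrpl24, Mrpl43, Mrpl53, Mrps18b, Mrps25 and Mrps34. Mrpl53 was the 1 member too low to be tested, with 2 reads over the 8 libraries (0 in each WT library, at a limit of 3 reads or 0.0555 to 0.0664 CPM). Of its 790 exon bases, 695 (88%) are also annotated to Ccdc142os or Gm42688. No level is given for it.

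No mitochondrial ribosomal protein gene passed the test between KI and WT. The edgeR quasi-likelihood test called 0 of the 77 members at an adjusted p under 0.05 (lowest adjusted p = 0.533, for Mrpl18), and it called 0 of all 17291 genes (0%). At an unadjusted p under 0.05 there were 8 members, all higher in KI, of which 5 were large and 3 small subunit genes. This was 8 of 77 against a background of 3.23% of tested genes higher and 4.56% lower (7.79% in either direction). The 8 were Mrpl18, Mrpl42, Mrpl44, Mrpl46, Mrpl49, Mrps18a, Mrps22 and Mrps28. The number was 4 without KI 526, and 5 without WT 506 or without KI 549. DESeq2 called 1 member, Mrpl18, and 139 of all genes (0.804%, with 33, or 0.191%, higher and 106, or 0.613%, lower), and limma-voom called 0 of either with 8 members at an unadjusted p under 0.05.

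The fold changes were small and mostly above 0. Of the 77 members, 56 (72.7%) had a log2 fold change above 0 and 21 below, with a median of 0.11 and a range of -0.32 to 0.35. Over all tested genes 50.1% were above 0, with a median of 0.00. The large subunit had 36 of 48 above 0 (75%) with a median of 0.10, and the small subunit had 20 of 29 (69%) with a median of 0.12. Placing the proteins by their position in the mammalian mitoribosome, with Mrps18a and Mrps30 moved to the large subunit, Mrps36 left out and 5 structural proteins without an Mrp symbol added (Gadd45gip1 to the large, Dap3, Chchd1, Aurkaip1 and Ptcd3 to the small subunit), gave 38 of 51 above 0 and a median of 0.10 for the large and 20 of 30 and 0.10 for the small subunit. Genes are not replicates, so the difference between the subunits was not tested. In 67 of the 77 members both ends of the 95% interval were less than 1.5-fold from no change, and in all 77 less than 2-fold.

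**Figure D2:**
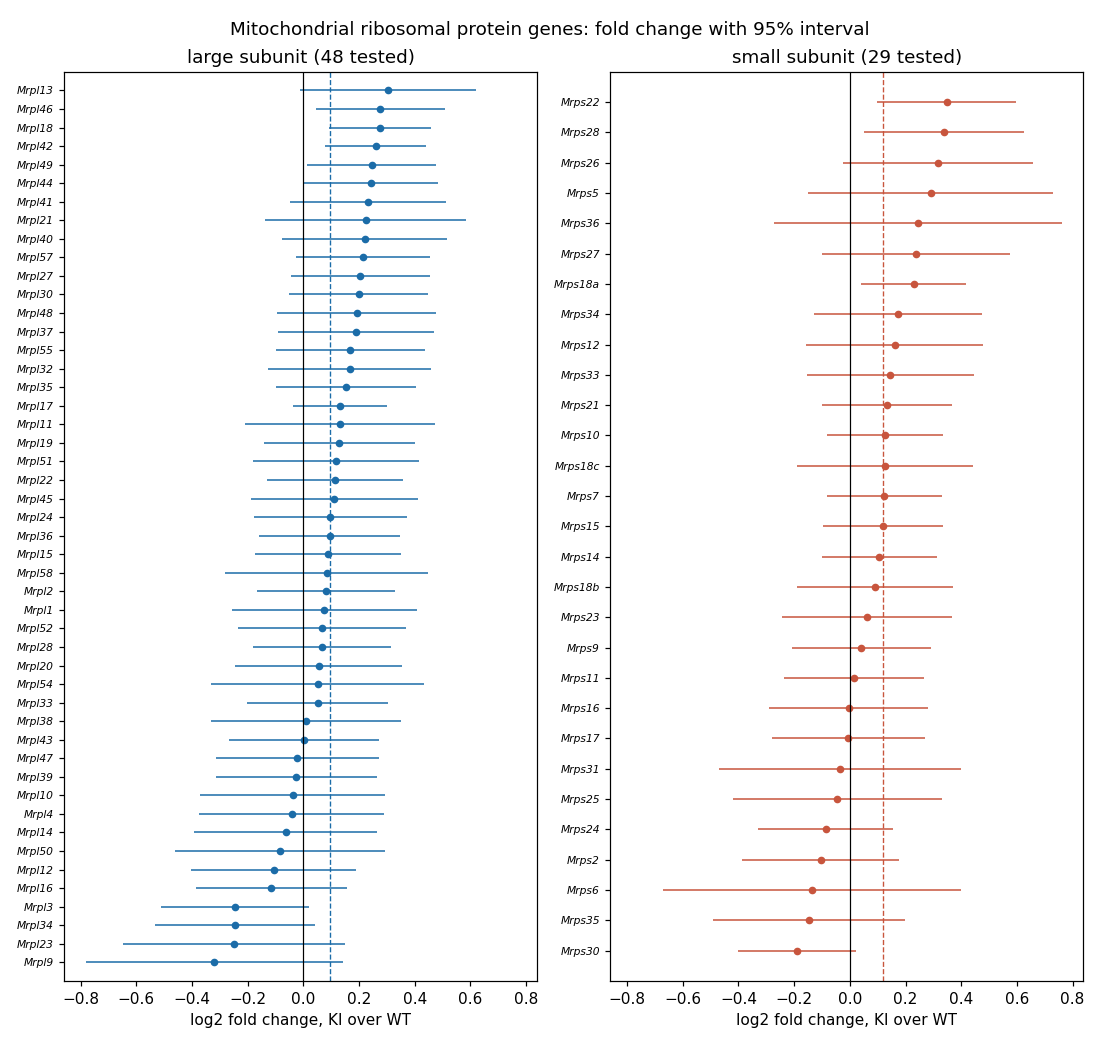
Log2 fold change of KI over WT with its 95% interval for the 48 tested large subunit genes (left) and the 29 small subunit genes (right), in order of size, from the edgeR quasi-likelihood fit. Dashed lines mark the medians of 0.10 and 0.12, and 36 and 20 points lie to the right of 0.

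The libraries of the groups overlapped in their average level over the members. With each gene's log2 CPM centred over the 8 libraries, the mean over members was 0.02 in WT 503, -0.0015 in WT 504, -0.12 in WT 506 and -0.06 in WT 527. In KI it was 0.01 in KI 513, 0.05 in KI 526, 0.07 in KI 528 and 0.04 in KI 549. WT 503 thus lay above KI 513, and WT 506 was the lowest of the 8. WT 506 was the lowest library in 24 of the 77 members and WT 527 in 14, while KI 526 was the highest in 21 and KI 528 in 15. KI 549 was the highest in 12 members and the lowest in 12. Without WT 506, 52 members were above 0, and the large subunit median was 0.06 and the small subunit median 0.09.

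**Figure D3:**
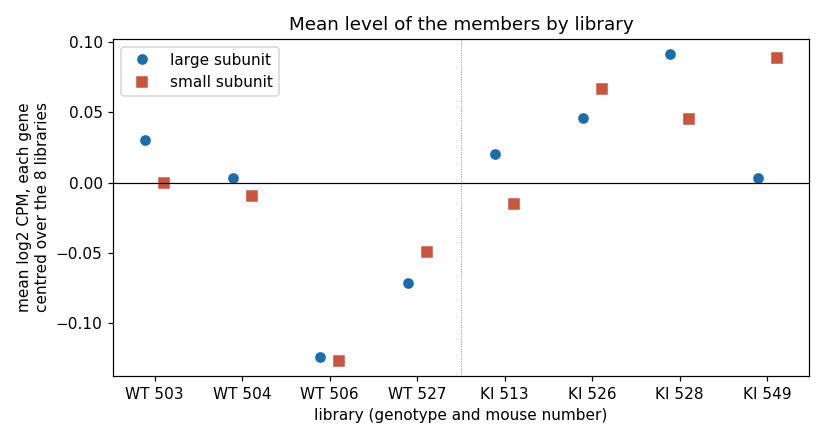
Mean over members of log2 CPM, each gene centred over the 8 libraries, by library, for the large subunit (circles) and the small subunit (squares). WT 506 is lowest in both (-0.12 and -0.13), KI 528 is highest in the large (0.09) and KI 549 in the small subunit (0.09), and the WT and KI ranges overlap in both.

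The large minus small subunit difference of these centred means was spread more widely in KI than in WT, with KI 549 the most distant library. It was 0.0059 ± 0.0222 in WT and -0.0059 ± 0.0602 in KI. The group means mirror each other because each gene was centred over groups of equal size. The values were 0.03, 0.01, 0.0023 and -0.02 in WT 503, 504, 506 and 527, and 0.04, -0.02, 0.05 and -0.09 in KI 513, 526, 528 and 549. KI 549 stood lowest, with a small subunit mean of 0.09 and a large subunit mean of 0.0035. The ranges of the groups overlapped.

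Between mice of the same group the members had a lower median variation than all tested genes within their CPM range. Only the ends of that range were matched, and the members are among those genes, so differences in abundance were not removed. Their coefficient of variation within groups had a median of 11.3%, from 3.81% for Mrpl18 to 22.9% for Mrpl9. It was 16.4% over the 9425 tested genes in the members' CPM range (3.46 to 135 CPM), and 11.4% and 10.5% in the large and small subunit. This is a description with no test.

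Among the members with the smallest p higher in KI, Mrpl18 (chromosome 17, 12911349 to 12916345, minus strand) encodes a protein of the central protuberance of the large subunit. Its level was 46.3, 47.6, 44.03 and 49.5 CPM in WT 503, 504, 506 and 527. In KI 513, 526, 528 and 549 it was 58.4, 56.0, 56.8 and 55.6 CPM. All KI libraries lay above all WT libraries, and the means were 46.9 ± 2.31 and 56.7 ± 1.24 CPM. The log2 fold change was 0.27 ± 0.08 (SE) with an 95% interval of 0.09 to 0.46 and an adjusted p of 0.533 by edgeR. DESeq2 gave an adjusted p of 0.0456, and over the other alternatives it ranged from 0.387 to 0.868.

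Mrpl42 (chromosome 10, 95480805 to 95501940, minus strand), a large subunit protein found only in mitochondria, was at 98.1, 101.2, 96.0 and 96.5 CPM in the 4 WT libraries in the same order. The KI libraries held 100.8, 120.2, 125.9 and 122.2 CPM. The WT values were close together and KI 513 lay among them, so the groups overlapped through that library. The log2 fold change was 0.26 (95% interval 0.08 to 0.44; adjusted p = 0.545, edgeR). Mrpl46 (chromosome 7, 78775236 to 78783531, minus strand), another protein of the central protuberance, was at 59.6, 53.95, 46.6 and 56.8 CPM in WT and at 57.4, 68.4, 69.0 and 67.9 CPM in KI. Here too KI 513 lay within the WT range and the other KI libraries above it, with a log2 fold change of 0.28 (0.04 to 0.51; adjusted p = 0.598, edgeR).

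Mrps22 (chromosome 9, 98588730 to 98601660, minus strand), a mitochondrion-specific small subunit protein whose human counterpart is a known mitochondrial disease gene, had the highest log2 fold change of the 77 members. It was at 27.1, 26.6, 25.7 and 21.8 CPM in WT and at 30.4, 33.6, 33.0 and 31.7 CPM in KI. The groups did not overlap, and the log2 fold change was 0.35 (0.10 to 0.60; adjusted p = 0.553, edgeR). Its promoter stretch above carries the ETS letters.

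Mrps28 (chromosome 3, 8802146 to 8923918, minus strand), a small subunit protein, was at 16.1, 15.9, 15.5 and 16.6 CPM in WT and at 20.5, 22.2, 17.2 and 21.3 CPM in KI. The groups did not overlap, with KI 528 closest to WT, and the log2 fold change was 0.34 (0.05 to 0.62; adjusted p = 0.598, edgeR). Mrps18a is named for the small subunit but its protein sits in the large subunit, as 1 of 3 mammalian relatives of the same bacterial protein. Its gene (chromosome 17, 46110986 to 46128910, plus strand) was at 50.3, 43.4, 46.7 and 47.9 CPM in WT and at 55.4, 56.4, 52.8 and 56.0 CPM in KI. Again no KI library lay within the WT range, and the log2 fold change was 0.23 (0.04 to 0.42; adjusted p = 0.596, edgeR).

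With Mrpl18, these made 4 members whose KI libraries all lay above their WT libraries (background 2.34% of tested genes) and 1, Mrpl34, whose KI libraries all lay below (background 2.6%). The relatives of Mrps18a, both in the small subunit, had nearer group means. Mrps18b was at 23.0 ± 1.93 CPM in WT and 24.5 ± 2.60 CPM in KI, and Mrps18c at 21.4 ± 2.07 and 23.3 ± 3.35 CPM, and both overlapped between the groups.

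**Figure D4:**
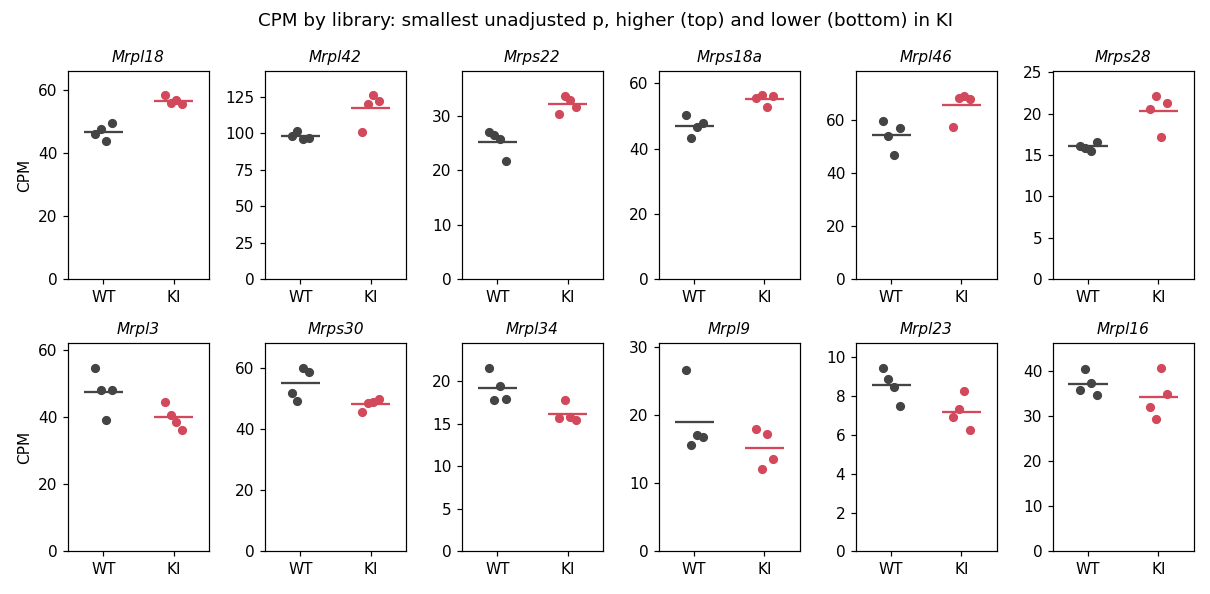
CPM in each library (points) and group mean (line), on axes from 0, for the 6 members with the smallest unadjusted p higher in KI (top) and the 6 lower in KI (bottom). The points of WT and KI are apart for Mrpl18, Mrps22, Mrps18a and Mrps28 (higher in KI) and for Mrpl34 (lower in KI), and overlap in the other panels.

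Of the members below 0, the 6 with the smallest p all had an interval that reached 0. Mrpl3 (chromosome 9, 105053239 to 105079888, plus strand), a core protein of the large subunit with a bacterial counterpart, was at 54.6, 48.1, 39.2 and 48.1 CPM in WT and at 44.7, 40.6, 38.7 and 36.4 CPM in KI. Only WT 506 lay within the KI range, and the log2 fold change was -0.24 (-0.51 to 0.02; adjusted p = 0.68, edgeR). Mrps30, which like Mrps18a belongs to the large subunit in spite of its name, was at 51.8, 49.1, 60.2 and 58.9 CPM in WT and at 45.7, 48.5, 49.0 and 49.8 CPM in KI. KI 549 lay above WT 504, so the groups overlapped, with a log2 fold change of -0.19 (-0.40 to 0.02; adjusted p = 0.686, edgeR).

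Mrpl34 (chromosome 8, 71464959 to 71465747, plus strand), a very small large-subunit protein and the shortest tested member at 607 exon bases, was at 21.6, 17.8, 19.5 and 17.9 CPM in WT. Its KI libraries were at 15.7, 17.8, 15.8 and 15.4 CPM, and all lay below the WT libraries, although KI 526 (17.79 CPM) was almost level with WT 504 (17.80 CPM). The log2 fold change was -0.25 (-0.53 to 0.04; adjusted p = 0.708, edgeR).

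Mrpl9, Mrpl23 and Mrpl16, 3 large subunit genes with bacterial counterparts, followed. Mrpl9 was at 26.5, 15.6, 17.1 and 16.7 CPM in WT and at 18.0, 12.1, 17.1 and 13.6 CPM in KI. WT 503 stood apart from the other WT libraries, the groups overlapped, and the log2 fold change was -0.32 (-0.78 to 0.14). Without WT 503 it was -0.12. Mrpl23 was at 8.57 ± 0.82 CPM in WT and 7.21 ± 0.83 CPM in KI, a log2 fold change of -0.25 (-0.65 to 0.15). Counted together with its pseudogene, an alternative added after seeing the data, it was at 35.4 ± 2.94 and 37.2 ± 4.27 CPM and the log2 fold change was 0.07. Mrpl16 was at 37.1 ± 2.53 and 34.2 ± 4.83 CPM, a log2 fold change of -0.11 (-0.38 to 0.16).

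Members with particular roles showed overlapping groups. Mrpl10, Mrpl11 and Mrpl12 belong to the stalk that recruits translation factors to the large subunit, and Mrpl12 is also known to bind the mitochondrial RNA polymerase. Mrpl10 was at 26.1 ± 3.71 CPM in WT and 25.4 ± 3.80 CPM in KI, Mrpl11 at 31.7 ± 5.56 and 34.7 ± 4.90 CPM, and Mrpl12 at 19.9 ± 2.30 and 18.5 ± 1.60 CPM. Mrps12, whose bacterial counterpart lies at the decoding centre, was at 29.9 ± 3.63 and 33.4 ± 5.30 CPM. Mrpl58, a peptidyl-tRNA hydrolase built into the large subunit that can release stalled chains, was at 32.6 ± 6.35 and 34.5 ± 4.75 CPM. Mrps36 was at 4.62 ± 0.68 and 5.48 ± 1.14 CPM. The differences of these 6 genes were all within the SD of at least 1 group.

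Transcript length was examined because these genes have short transcripts. The members' median exon length was 2255 bases against 3392 for all tested genes. When the members were split into 3 parts by length, the shortest (607 to 1664 bases) had 20 of 26 above 0 with a median log2 fold change of 0.09, the middle 17 of 25 with 0.11 and the longest (3332 to 8631 bases) 19 of 26 with 0.12. All tested genes of the same lengths had medians of 0.05 (57% above 0), 0.0025 (50.3%) and -0.02 (46.9%). By these medians over genes, the tested genes in the shortest range lay slightly higher in KI. The slopes of single libraries on length ran from -0.00297 to 0.0106 in WT and from -0.013 to 0.00953 in KI, so the groups overlapped. The members' medians by summed exon length rose slightly from short to long. By principal transcript length the 3 parts, from short to long, had 21 of 26 (80.8%), 19 of 25 (76%) and 16 of 26 (61.5%) above 0. Their medians were 0.12, 0.09 and 0.10, so by this length the share above 0 fell from short to long. The part of length in the members' fold changes was not tested.

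**Figure D5:**
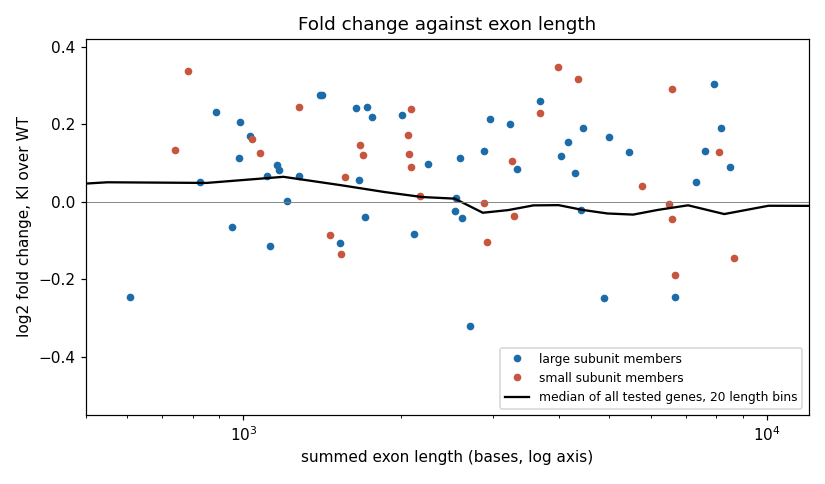
Log2 fold change of KI over WT against summed exon length (bases, log axis) for the 48 large and 29 small subunit members (points), with the median of all tested genes in 20 length bins (line). The line falls from about 0.06 near 1192 bases to about -0.03 near 2865 bases, and the members scatter mostly above 0 at all lengths.

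Removing each library's trend on exon length over all tested genes left 58 of the 77 members above 0, with a median of 0.09, and 36 of 48 large and 22 of 29 small subunit genes above 0. Their medians were then 0.10 and 0.08, so the order of the subunits changed places. With length and GC trends removed, 56 were above 0 and the medians were 0.11 and 0.08. The slope of the libraries' log2 level on log2 exon length differed between KI and WT by -0.00473 (exact permutation test, 2-sided, p = 0.343, with 0.0286 the smallest p that 70 assignments can give). Over genes of at least 5 CPM the difference was -0.0243 (exact permutation test, p = 0.0571).

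Some members start close to a gene read in the other direction. Such a head-to-head neighbour, with starts at most 1000 bases apart, was found for 30 of the 78 members, 22 large and 8 small subunit genes. The share of all genes with such a neighbour was not examined, nor whether a pair shares a promoter. The 30 members had 26 log2 fold changes above 0 with a median of 0.17, and the other 47 tested members had 30 above 0 with a median of 0.07. This split was not tested, as genes are not replicates. The neighbours themselves, 27 of them tested, had 13 above 0 and a median of -0.08. Of these 27, 3 were lower in KI at an unadjusted p under 0.05 (background 4.56%): Wdfy1 beside Mrpl44 (168 ± 31.0 CPM in WT, 96.2 ± 28.5 CPM in KI), Pnpla7 beside Mrpl41 (201 ± 26.0 and 148 ± 18.8 CPM) and Apba3 beside Mrpl54 (6.55 ± 2.11 and 4.02 ± 1.02 CPM). DESeq2 called Wdfy1 and Pnpla7, 2 of the 27 (background 0.613% called lower). Across the 28 distinct pairs with both genes tested, 13 had the same sign in both genes. Mrpl46 and Mrps11, a large and a small subunit gene, start 30 bases apart and had log2 fold changes of 0.28 and 0.02. Mrpl18 lies beside Tcp1, which encodes a subunit of the cytosolic chaperonin and was at 88.7 ± 4.61 CPM in WT and 94.4 ± 4.89 CPM in KI. The members that hold the NRF1, ETS or YY1 letters had medians of 0.11 (11 of 16 above 0), 0.16 (11 of 12) and 0.17 (7 of 8), beside 0.08 (22 of 34) for tested members with none of them.

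Other genes of mitochondrial translation were read from lists, and the quasi-likelihood test called 0 genes in each of them. The 5 structural proteins without an Mrp symbol had 3 log2 fold changes above 0 and a median of 0.02. The 15 translation factors had 7 above 0 and a median of -0.0064, with Mrrf, the ribosome recycling factor, at 10.8 ± 3.63 CPM in WT and 8.40 ± 2.06 CPM in KI. Of these 20 genes, 0 reached an unadjusted p under 0.05 in either direction.

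The 20 mitochondrial aminoacyl-tRNA synthetases and related tRNA-charging genes lay mostly on the other side of 0. Of them 5 were above 0, the median log2 fold change was -0.13, and 4 were lower in KI at an unadjusted p under 0.05 (background 4.56%). Tars2, the threonyl-tRNA synthetase, was at 42.3 ± 8.86 CPM in WT and 27.9 ± 1.14 CPM in KI, a log2 fold change of -0.60 (-0.92 to -0.28; adjusted p = 0.507, edgeR). Lars2, the leucyl-tRNA synthetase, was at 116 ± 5.30 and 88.6 ± 12.04 CPM, a log2 fold change of -0.39 (-0.61 to -0.17; adjusted p = 0.507, edgeR). DESeq2 called these 2 of the 20 genes (background 0.613% called lower). Vars2, the valyl-tRNA synthetase, was at 3.51 ± 0.41 and 1.94 ± 0.31 CPM, and for each of the 3 genes all KI libraries lay below all WT libraries (background 2.6%).

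The 27 genes of mitoribosome assembly and ribosomal RNA modification had 13 above 0, a median of -0.05 and 2 lower in KI at an unadjusted p under 0.05 (background 4.56%). The first was Noa1, a GTPase of small subunit assembly, at 10.1 ± 0.60 CPM in WT and 6.57 ± 2.07 CPM in KI. All its KI libraries lay below all WT libraries (1 of 27 genes, background 2.6%). The second was Dhx30, an RNA helicase, at 45.2 ± 2.23 and 36.4 ± 6.27 CPM. Malsu1, which acts in large subunit assembly, was at 45.6 ± 1.97 and 52.1 ± 4.85 CPM. All its KI libraries lay above all WT libraries (1 of 27 genes, background 2.34%). Of the 13 regulators of mitochondrial transcription and biogenesis, 12 were tested (Ppargc1a was too low), with 7 above 0 and a median of 0.05. At an unadjusted p under 0.05, 1 was higher (Tfam, background 3.23%) and 1 lower in KI (Polrmt, background 4.56%). Tfam, which packages mitochondrial DNA and starts its transcription, was at 31.6 ± 4.49 CPM in WT and 41.3 ± 1.83 CPM in KI. All its KI libraries lay above all WT libraries (1 of 12 genes, background 2.34%). The log2 fold change was 0.38 (0.12 to 0.65, adjusted p = 0.533, edgeR). Polrmt, the mitochondrial RNA polymerase, was at 6.74 ± 2.40 and 3.85 ± 1.59 CPM. The groups overlapped, and its log2 fold change was -0.81 (-1.59 to -0.02, adjusted p = 0.6335, edgeR). Nrf1, the factor of the NRF1 motif, was at 69.9 ± 13.3 and 57.6 ± 5.13 CPM.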

How the data were processed

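The deposited counts sum exon reads by gene and come from featureCounts run unstranded on primary alignments of paired reads, per the file headers. Both mates of a pair may have been counted, since the header sets no fragment counting. Among low non-zero counts, 68.9% (KI 528) to 70.8% (KI 513) were even, so both mates appear to have been counted for many pairs. Per the submitters' processing notes, the genome build was mm10 and the tools were R 3.6.0 with edgeR and limma, featureCounts 2.0.3, STAR 2.7.5c and SAMtools 1.9, with no roles. The annotation version was not given in the sources used here; symbols came from GENCODE M21 and matched 54409 of 54532 identifiers. The authors' deposited FPKM values, used only as an alternative level, equal counts over the exon length less about 188 bases. The table holds 8 columns that match no label, which were not used.

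The counts were fitted in edgeR 4.0.16 (R 4.3.3) over all genes kept by filterByExpr (minimum count 10, minimum total 15), with TMM scaling, group as the only term, the robust quasi-likelihood test and Benjamini-Hochberg adjustment; an adjusted p under 0.05 was a call. DESeq2 1.42.0 and limma 3.58.1 (voom) were alternatives. Others were size factors, no filter, length and GC offsets and leaving out each mouse; pseudogene reads and principal transcript length were added after seeing the data. CPM and RPKM use TMM-scaled library sizes. Intervals cover 95%. Libraries carry no molecular identifiers, so limits on reads cover counting error only, and they treat the mates of a pair as independent. The scripts were tested on simulated data with 4 libraries in each group. There the main fit called 77 of 194 genes changed 2-fold (39.7%), with 4 false calls, so a gene not called may still differ.

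Named members were the 3 highest and lowest per length in each subunit, up to 6 per direction with the smallest p, any called by a tool or left out by the filter, the Mrps18 relatives and 7 members with particular roles; other lists gave up to 3 genes each. Others are named for a count or because a feature singled them out after their values were seen. The members, lists and rules were chosen with earlier results of these data known. The NRF1 and YY1 motifs were shortened after a first search with longer forms, which also matched a larger share of member promoters than of all promoters.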

Additional observations from a re-analysis of the deposited data

Results flagged for a closer look

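Within the groups of 4 libraries, 3 of the 68 sets of values examined had 1 library far from the other 3. In KI, Mrpl46 was lowest in KI 513 at 57.4 CPM, with the other 3 libraries at 67.9 to 69.0 CPM. Also in KI, Mrpl34 was highest in KI 526 at 17.8 CPM, with the others at 15.4 to 15.8 CPM. In WT, Mrpl9 was highest in WT 503 at 26.5 CPM, with the others at 15.6 to 17.1 CPM. Chance gives such a gap in about 5% of groups, and 3 of 68 is close to that.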

How the results depend on the processing

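DESeq2 called 1 member (Mrpl18, log2 fold change 0.28, adjusted p = 0.0456) and 139 of all genes, where edgeR's quasi-likelihood test called 0. With other size factors, limma-voom, no filter on low counts, length or GC trends removed, pseudogene reads added, or any mouse left out, 0 members and 0 genes were called. The large subunit median ranged from 0.0639 to 0.1209 and the small subunit median from 0.0826 to 0.1356 as mice were left out. The ratio of the large to the small subunit median level was 1.11 with principal transcript lengths. The log2 fold change changed sign for Mrpl23 with pseudogene reads added (0.0694). It also did for Mrpl10 without WT 504 (0.0166), WT 527 (0.0263), KI 526 (0.0194) or KI 549 (0.0067), for Mrpl58 without WT 506 (-0.0447) or KI 526 (-0.0167), and for Mrpl28 without KI 549 (-0.0016). As mice were left out, these ranged from -0.1406 to 0.0263, -0.0447 to 0.1706 and -0.0016 to 0.1407. The cause was not tested. Of 496 values of the 31 named members over the settings, 31 were those of the main fit. Among the others, 456 kept their sign and call, 8 changed sign and 1 passed the threshold. The difference in length slope ranged from -0.00869 to -0.00117 as mice were left out. No paired analysis was possible because the mouse numbers are not shared between the groups. With 4 mice in each group the intervals of the members span both directions in most cases, so differences of the size seen were not resolved gene by gene.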
